A study of Mus musculus with 4 samples.

Results

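The genes described here are 10 transcription factors linked to lymphocyte activation: the AP-1 subunits Fos, Fosb, Fosl2, Jun, Junb, Jund and Batf, the zinc finger factors Egr1 and Egr2, and the nuclear receptor Nr4a1. They were taken by symbol from the deposited table of 22554 genes, and all 10 had a row. The RNA came from group 2 innate lymphoid cells (ILC2s), tissue lymphocytes that answer alarm cytokines with type 2 cytokines, sorted from the lungs of BALB/c mice aged 6 weeks. The cells were kept overnight, as the labels give it, in the growth factors IL-2 and IL-7 and the alarm cytokine IL-33. Compound 5D, a small molecule that blocks Orai calcium channels and was dissolved in DMSO, was given to the cells of 2 libraries and vehicle to those of the other 2, so all 4 libraries came from IL-33-stimulated cells and none from resting cells. The labels do not say that the libraries of a group came from separate animals or cultures, so the p-values measure the spread between these samples, which may be technical. In bulk RNA, fewer cells of a type and less RNA per cell cannot be told apart.

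AP-1 is a dimer of basic leucine zipper proteins, usually a FOS protein with a JUN protein, and it binds DNA beside NFAT at many cytokine genes. Calcium that enters through Orai channels activates calcineurin, which sends NFAT to the nucleus, while MAP kinases act on the FOS and JUN proteins and on the factors that switch their genes on. EGR factors and NR4A1 are made within a short time of activation, and their genes respond to serum response factor, CREB or calcium signals.

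The libraries held 20096513 to 28697196 counts, vehicle at the lower end and 5D at the upper end. All 12 ILC2 markers were in the table, and their summed level was 10849 to 11039 CPM (normalized counts scaled to the library's total) in vehicle and 10184 to 10625 in 5D. Most of this sum was Il5 (mean 4731 CPM in vehicle and 4463 in 5D) and Il2ra (2144 and 1822). Gata3 (1095 and 1101), Il1rl1 (647 and 704), Rora, Il7r and Ptprc had means in 5D at or above those in vehicle. Klrg1 (237 and 214), Thy1 (12.2 and 9.35), Areg, Il13 and Icos had lower means in 5D. At an unadjusted p below 0.05 in edgeR's quasi-likelihood test, 4 of the 12 were lower and 1 higher, against 3.84% and 3.50% of all genes tested. Summed T cell markers (6 of 8 in the table, with Cd4 at 0) were at 28.6 to 30.96 CPM in vehicle and 33.7 to 34.0 in 5D, and the 7 myeloid markers at 3.70 to 7.95 and 4.76 to 5.34. Pecam1, the 1 endothelial marker of 3 in the table, was at 21.3 to 23.7 CPM in vehicle and 15.7 to 19.9 in 5D, and the 3 fibroblast markers in the table were at 0.172 CPM or less. What part, if any, these small differences had in the values given here was not tested.

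The sequence before the start of 9 of the 10 genes was read from RefSeq on GRCm38.p6 (mm10), as 250 bases upstream of a RefSeq start. These windows were searched on both strands for letters that the AP-1, EGR, NR4A, CREB, NFAT and serum response factors are known to bind. Those of Fos, Junb, Batf, Egr2 and Nr4a1 are shown, Fos because its log2 fold change was the closest to 0 and the other 4 because they had the smallest p-values. Capitals mark the half-site of the cyclic AMP response element (TGACG or its complement CGTCA), and in Egr2 also a CArG box, the letters that serum response factor binds, and in Nr4a1 also the EGR letters GCGGGGGCG, here as their complement. The windows are Fos at chr12:85473640-85473889 (plus strand), Junb at chr8:84978749-84978998 (minus strand), Batf at chr12:85686470-85686668 (plus strand, ending before the first exon), Egr2 at chr10:67537619-67537868 (plus strand) and Nr4a1 at chr15:101266596-101266845 (plus strand).
Fos: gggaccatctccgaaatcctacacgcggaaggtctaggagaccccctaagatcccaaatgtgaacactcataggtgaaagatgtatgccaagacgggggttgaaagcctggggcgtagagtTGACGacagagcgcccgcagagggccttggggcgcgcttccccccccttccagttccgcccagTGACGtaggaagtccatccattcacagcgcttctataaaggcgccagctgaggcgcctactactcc
Junb: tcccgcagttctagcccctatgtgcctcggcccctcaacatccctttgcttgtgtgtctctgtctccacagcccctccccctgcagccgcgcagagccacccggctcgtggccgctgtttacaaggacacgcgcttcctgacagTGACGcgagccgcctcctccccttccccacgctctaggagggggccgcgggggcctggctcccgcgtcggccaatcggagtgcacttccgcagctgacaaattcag
Batf: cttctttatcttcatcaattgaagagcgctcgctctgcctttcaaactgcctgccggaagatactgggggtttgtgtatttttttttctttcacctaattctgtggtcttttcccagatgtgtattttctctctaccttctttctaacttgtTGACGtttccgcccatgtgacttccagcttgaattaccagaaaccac
Egr2: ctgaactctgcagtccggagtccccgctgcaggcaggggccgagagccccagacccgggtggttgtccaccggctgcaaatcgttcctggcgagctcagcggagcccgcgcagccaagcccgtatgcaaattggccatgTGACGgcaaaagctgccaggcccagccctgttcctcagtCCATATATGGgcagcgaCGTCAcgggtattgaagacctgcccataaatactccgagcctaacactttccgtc
Nr4a1: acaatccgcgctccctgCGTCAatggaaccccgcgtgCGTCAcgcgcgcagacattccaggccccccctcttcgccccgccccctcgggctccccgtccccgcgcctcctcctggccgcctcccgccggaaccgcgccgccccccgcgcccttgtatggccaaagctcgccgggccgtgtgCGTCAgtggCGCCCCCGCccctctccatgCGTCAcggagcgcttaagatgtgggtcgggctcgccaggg

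In the window whose RefSeq start lies nearest the GENCODE start of the gene, the half-site occurred at least once for 5 of the 9 genes (Fos, Fosb, Junb, Batf and Nr4a1), against 17.8% of all 32851 windows of this length. It was added to the search after the sequences had been seen. Nr4a1 held it 4 times, the most of the 9, and 0.137% of all windows held it at least that often. That threshold was set by the member with most copies, so the share does not measure how rare such a count is among 9 windows. The RefSeq start of Nr4a1 lies inside the annotated gene, 12577 bases downstream of the GENCODE start. Fos held 2 copies, 129 to 125 and 66 to 62 bases before the start. The full element TGACGTCA, which contains the half-site, was in none of the 9 and in 1.55% of all windows. EGR letters (GCGTGGGCG or GCGGGGGCG) were in the windows of Fosb, Fosl2 and Nr4a1 and in 3.06% of all, and the NFAT core GGAAA was in those of Jun and Batf and in 55.6% of all. The Fosl2 window ends at a RefSeq start inside the annotated gene, 671 bases downstream of the GENCODE start. The Jund window ends at a RefSeq start 1210 bases upstream of the GENCODE start, so it does not lie directly before the gene as counted here. The AP-1 letters TGACTCA or their complement TGAGTCA and the NR4A letters AAAGGTCA were in none of the 9, against 4.46% and 1.34% of all windows. For Egr2, RefSeq gives several starts, and the window nearest the gene's first base held none of these letters. The one shown is not the nearest, and it was not fixed before the letters were searched. It holds 2 half-sites and a CArG box, as do other Egr2 windows that overlap it. This window ends at a start at base 67537869, with its CArG box 72 to 63 bases before that start. That start lies inside the annotated gene, 2394 bases downstream of the GENCODE start. A CArG box was in none of the 9 nearest windows and in 1.47% of all windows. These matches are descriptions of letters, and binding was not measured.

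Compound 5D was compared with vehicle to ask how the ILC2 transcriptome differs when Orai channels are blocked. Of the 10 genes, 9 had enough counts for the test, and the 10th, Fosb, did not. All 9 had a lower estimate in 5D, where 8887 of all 17650 genes tested had a lower one and 8763 a higher one. The members were chosen with earlier results of these data known. The median log2 fold change of the 9 was -0.17, and that of all genes tested was -0.0016. None of the 9 reached an adjusted p below 0.05 in edgeR's quasi-likelihood test, where 0.0680% of all genes were called lower and 0.0283% higher. At an unadjusted p below 0.05 by the same test, 4 of the 9 were lower (Junb, Nr4a1, Batf and Egr2) and 0 higher, while 3.84% of all genes tested were lower and 3.50% higher. The groups did not overlap in 6 of the 9, each time with 5D the lower, against 18.8% of all genes with 5D wholly lower and 18.7% with it wholly higher. Limma-voom also gave 0 of the 9 at an adjusted p below 0.05, and DESeq2 gave 0 of the 4 for which it returned one (Junb, Jund, Batf and Egr1).

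**Figure D1:**
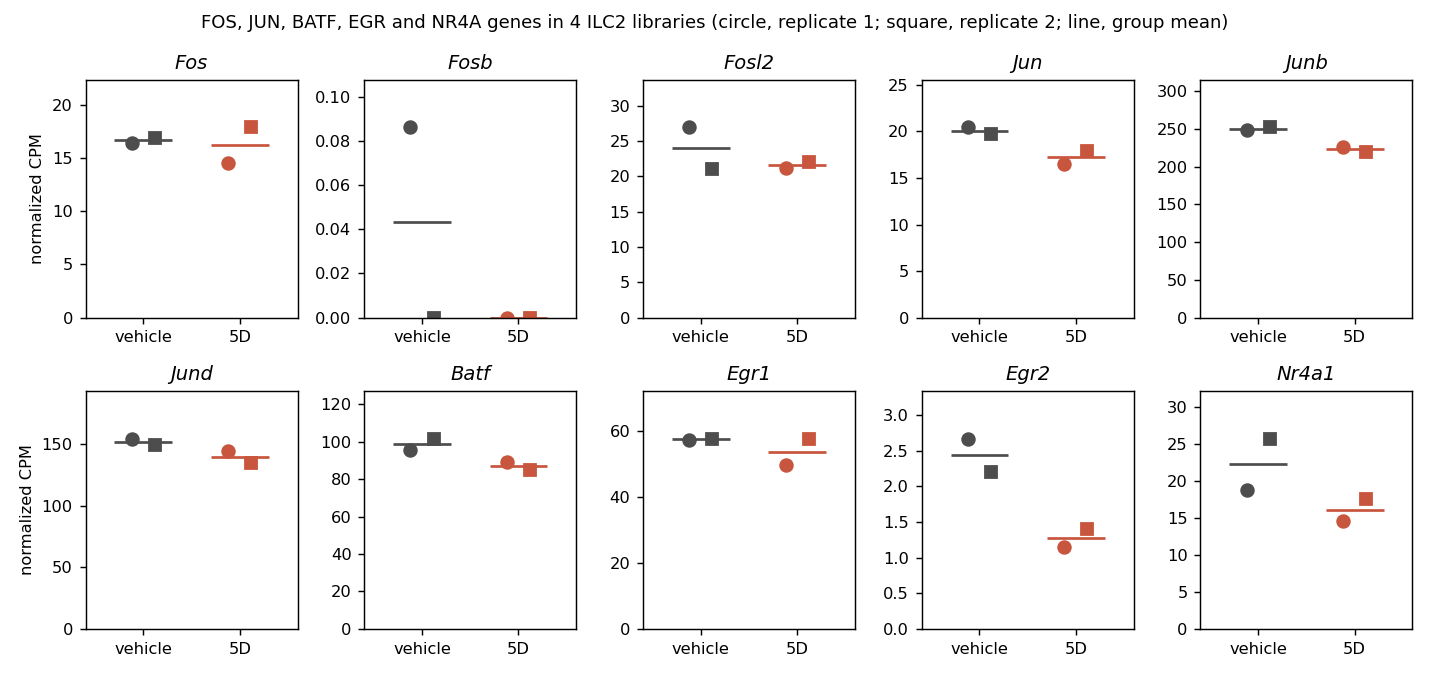
Normalized CPM of each of the 10 genes in the 2 vehicle and 2 compound 5D libraries, each gene on its own axis with a line at the group mean. In Jun, Junb, Jund, Batf, Egr2 and Nr4a1 both 5D points lie below both vehicle points, and in Fos, Fosl2 and Egr1 the groups overlap, while Fosb has counts in 1 vehicle library only.

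The JUN proteins are the AP-1 subunits that can pair with each other as well as with FOS proteins. Junb, whose product restrains or replaces JUN at many sites and is needed for type 2 cytokine programmes in T helper cells, was the most abundant of the 10 genes. It was at 249 and 252 CPM in vehicle and at 227 and 220 CPM in 5D. Both 5D libraries were lower than both vehicle libraries, and the replicates lay close together, at 251 ± 2.26 and 223 ± 4.73 CPM (SD, n = 2 each). On the log2 scale the difference was -0.17 (SE 0.050, 95% interval -0.28 to -0.059), with an adjusted p of 0.517 in edgeR's quasi-likelihood test. Junb ranked 204th of 17650 genes by p, the highest place of the 9. It lies at chr8:84974484-84978718 on the minus strand, where 173 exon bases overlap Prdx2 on the other strand, and reads from these bases cannot be assigned to 1 gene because the library kit does not mark strand.

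Jund, a JUN protein that many cells hold at rest, was at 154 and 149 CPM in vehicle and 144 and 134 in 5D. The groups did not overlap, with a log2 fold change of -0.12 (95% interval -0.26 to 0.010) and an adjusted p of 0.714 by edgeR. Jun itself, the partner of FOS in the classical AP-1 dimer, was at 20.5 and 19.7 CPM in vehicle and 16.5 and 17.9 in 5D. These groups did not overlap either, and the log2 fold change of -0.22 (SE 0.13, 95% interval -0.51 to 0.059) had an adjusted p of 0.767 by edgeR. Jun lies at chr4:95049034-95052222 and shares 232 exon bases with the antisense gene Junos. Jund lies at chr8:70698949-70700616 and shares 877 of its 1668 exon bases with Gm11175 on the other strand. Reads from these shared bases cannot be assigned to 1 gene, as for Junb.

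Batf has no transactivation domain of its own, pairs with JUN proteins and binds with IRF4 at composite sites in lymphocytes. It was at 95.8 and 102 CPM in vehicle and at 88.9 and 85.0 CPM in 5D. The 5D libraries were both below the vehicle libraries, with group means of 98.7 ± 4.10 and 86.9 ± 2.78 CPM (SD, n = 2 each). On the log2 scale 5D was at -0.18 relative to vehicle (SE 0.069, 95% interval -0.34 to -0.031), with an adjusted p of 0.583 by edgeR. Batf lies at chr12:85686669-85709087, 209.4 kb from Fos on the same strand, with Jdp2, another AP-1 type factor, between them.

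The FOS proteins cannot pair with themselves and need a JUN partner. Fos, the classical immediate early gene, was at 16.4 and 16.9 CPM in vehicle and at 14.6 and 17.9 CPM in 5D. The 5D libraries lay on either side of the vehicle libraries, and the log2 fold change was -0.038 (SE 0.15, 95% interval -0.36 to 0.29, adjusted p = 0.985 by edgeR). Fosl2, which encodes FRA-2, was at 27.0 and 21.1 CPM in vehicle and at 21.2 and 22.0 in 5D. Here vehicle replicate 1 stood above the other 3 libraries, which lay close together. The log2 fold change was -0.16 (95% interval -0.46 to 0.15) with all libraries and 0.032 without vehicle replicate 1. Fosb was counted 2 times in 1 vehicle library and not at all in the other 3, under the floor of 3 counts per library, so no fold is given. Fos lies at chr12:85473890-85477273, Fosl2 at chr5:32135801-32157842 and Fosb at chr7:19302696-19310051.

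EGR1 and EGR2 bind the same GC-rich letters, and EGR2 is known in T cells as a calcium- and NFAT-dependent factor that restrains activation. Egr2 was at 2.67 and 2.20 CPM in vehicle, from 62 and 44 counts, and at 1.14 and 1.40 CPM in 5D, from 31 and 40 counts. Both 5D libraries were below both vehicle libraries, at 1.27 ± 0.182 against 2.43 ± 0.333 CPM (SD, n = 2 each). The estimate of -0.94 on the log2 scale was the largest of the 9 in size, but with so few counts its SE was 0.37 and its 95% interval ran from -1.75 to -0.12 (adjusted p = 0.612 by edgeR). Egr1 was at 57.3 and 57.7 CPM in vehicle and at 49.6 and 57.7 in 5D, so only 5D replicate 1 stood apart. Its log2 fold change was -0.10 (95% interval -0.30 to 0.11) and 0.0014 without that library. Egr1 lies on chromosome 18 at 34859823 to 34864984 and Egr2 on chromosome 10 at 67535475 to 67542188.

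Nr4a1 encodes NUR77, an orphan nuclear receptor whose expression in lymphocytes follows the strength of receptor and calcium signals. It was at 18.7 and 25.7 CPM in vehicle and at 14.5 and 17.5 CPM in 5D. The 5D libraries were below the vehicle libraries, but the gap between the groups was smaller than that between the 2 vehicle libraries. The group means were 22.2 ± 4.92 and 16.02 ± 2.12 CPM (SD, n = 2 each), and the log2 fold change was -0.47 (SE 0.17, 95% interval -0.83 to -0.10, adjusted p = 0.566 by edgeR). Without vehicle replicate 1 it was -0.68 with an adjusted p of 0.0101 in edgeR, the only adjusted p below 0.05 for any of the 9 genes in any setting. Without vehicle replicate 2 it was -0.23 with an adjusted p of 0.893, so the call rested on which vehicle library was kept. In such fits the group with 1 library adds nothing to the spread, and that library is assumed to vary like those of the other group. Nr4a1 lies at chr15:101254269-101274795.

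**Figure D2:**
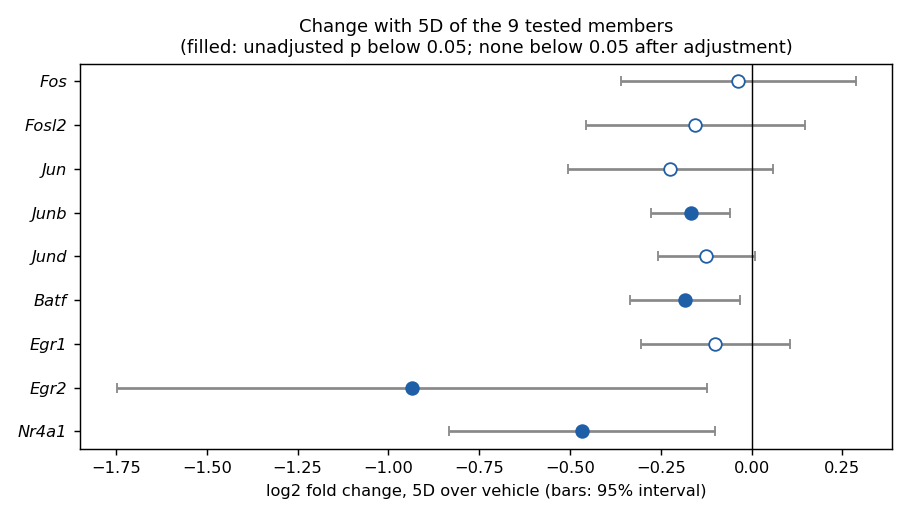
Log2 fold change of each tested gene, compound 5D against vehicle, with its 95% interval from edgeR's quasi-likelihood fit. All 9 estimates are below 0, and the intervals of Junb, Batf, Egr2 and Nr4a1 stay below 0 before any adjustment for the number of genes.

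How far replicates differed beyond counting was tested for each gene and group by an exact binomial test on the 2 counts, which covers counting error only. Of 18 such pairs, 6 differed at an adjusted p below 0.05. Nr4a1 differed in both groups, with replicate 2 at 1.37 times replicate 1 in vehicle (95% interval 1.20 to 1.56, exact adjusted p = 2.1e-05) and at 1.21 times in 5D (1.06 to 1.38, exact adjusted p = 0.0165). Fosl2 differed in vehicle, where replicate 2 was 0.782 times replicate 1 (exact adjusted p = 0.00056). Egr1 and Fos differed in 5D, with ratios of 1.16 (exact adjusted p = 0.00032) and 1.23 (exact adjusted p = 0.0075), and Jund in 5D with a ratio of 0.932 (exact adjusted p = 0.0075). Junb, Batf, Jun and Egr2 had no adjusted p below 0.05 in either group, although for Egr2 the 95% interval of the 5D ratio was wide, 0.747 to 2.02.

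Per kilobase of annotated exon, the level of the 10 genes spanned a wide range. Junb stood at 109 ± 0.983 CPM per kb in vehicle and 97.0 ± 2.06 in 5D, Jund at 90.9 ± 2.22 and 83.4 ± 4.11, and Batf at 70.2 ± 2.92 and 61.8 ± 1.97 (SD, n = 2 each). These 3 kept apart from each other in every library of a group. Egr1 followed at 12.8 ± 0.0578 CPM per kb in vehicle. Fos at 7.09 ± 0.161 and Jun at 6.30 ± 0.158 came next and did not overlap, and Nr4a1 at 6.33 ± 1.40 overlapped both in vehicle and lay below both in 5D. Fosl2 at 2.48 ± 0.428 and Egr2 at 0.716 ± 0.0980 came below them. The value for Jund depends on the gene model, since the RefSeq start lies 1210 bases upstream of the one used here.

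**Figure D3:**
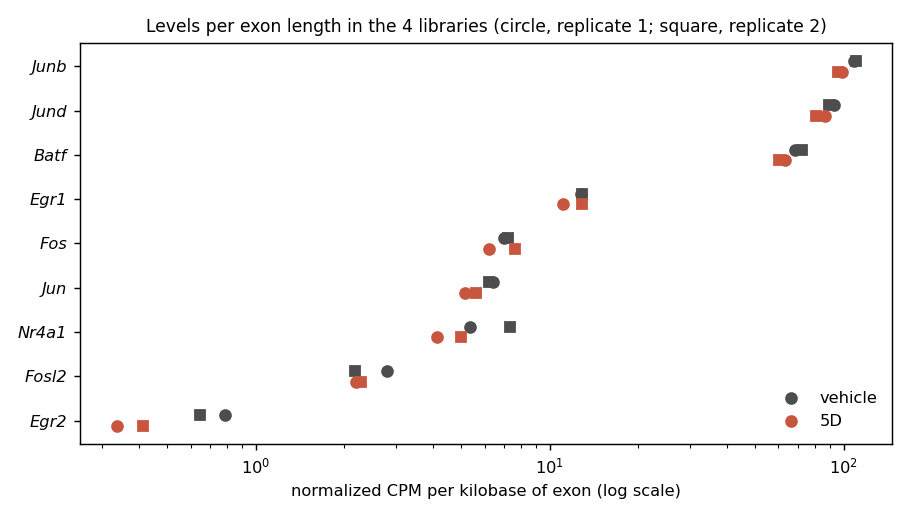
Level of each of the 9 tested genes per kilobase of exon, in normalized CPM per kb on a log axis, for the 4 libraries. Junb, Jund and Batf form the top of the order in both groups, and Egr2 is the lowest of the 9.

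Within the JUN family, the make-up per length differed between groups by no more than the spread of replicates. Junb made up 52.9% ± 0.835 of the JUN total in vehicle and 52.2% ± 0.535 in 5D, and Jund 44.1% ± 0.779 and 44.9% ± 0.802 (SD, n = 2 each). The JUN total was 207 and 205 CPM per kb in vehicle and 190 and 182 in 5D, with no overlap. In the EGR pair, Egr2 made up 5.79% and 4.79% in vehicle and 2.95% and 3.10% in 5D, which do not overlap. The total of Fos, Fosb and Fosl2 was 9.77 and 9.38 CPM per kb in vehicle and 8.38 and 9.89 in 5D, and these groups overlapped. It is not the total of the whole FOS family, because Fosl1, placed in another list, was left out. In CPM, the mean of Fosl1 was just below that of Fos in each group, and its groups overlapped too.

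Removing 1 library at a time showed which values rested on a single sample. Junb kept an unadjusted p below 0.05 in each of these 4 fits, with log2 fold changes from -0.19 to -0.15. Batf ranged from -0.23 to -0.14 and was above that threshold without vehicle replicate 2 and without 5D replicate 2. Egr2 ranged from -1.09 to -0.79 and stayed below it only without vehicle replicate 2, and Nr4a1 was above it without vehicle replicate 2 and without 5D replicate 1. Jund, at -0.18 without 5D replicate 1, and Fosl2, at -0.32 without vehicle replicate 2, passed it in those fits only.

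**Figure D4:**
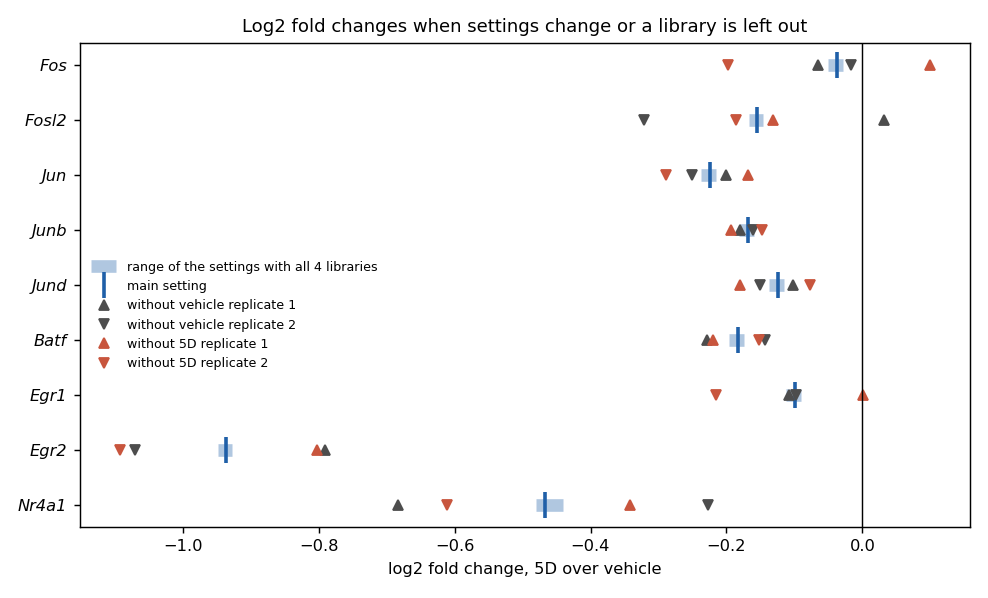
Log2 fold change of each tested gene under the reported fit, the 9 other settings with all 4 libraries, and the 4 fits that leave out 1 library. The 9 other settings move the estimates little, while leaving out a library moves Nr4a1 between -0.68 and -0.23 and turns Fos, Fosl2 and Egr1 to values at or above 0.

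Genes that work with these factors were described by lists. Of all 17650 genes tested, 8763 were higher and 8887 lower. At an unadjusted p below 0.05 by edgeR, 3.50% were higher and 3.84% lower. Of 12 other AP-1 type leucine zipper factors tested, 6 were higher and 6 lower, and their median on the log2 scale was -0.0078. Atf7, a CREB-like factor, was lower at -0.38 (26.7 ± 2.78 CPM in vehicle and 20.5 ± 1.62 in 5D) and Nfil3, a repressor needed for innate lymphoid cell development, at -0.22 (75.5 ± 0.0210 and 64.7 ± 4.27), both with an unadjusted p below 0.05 by edgeR. Of the other EGR and NR4A genes and their NAB corepressors, 4 of 6 were tested and none had an unadjusted p below 0.05. Their closest relatives, chosen for mention after their values were seen, were sparse, with Egr3 at 27 and 25 counts in vehicle and 33 and 41 in 5D, and Nr4a2 at 13 and 36 and at 14 and 16. Of 9 BATF partners and competitors, 3 were higher and 6 lower, with a median of -0.068 on the log2 scale, and 1 had an unadjusted p below 0.05. This was Ikzf3, a zinc finger factor of lymphocytes, at 228 ± 5.05 CPM in vehicle and 255 ± 4.10 in 5D, a log2 fold change of 0.16 with an adjusted p of 0.520 by edgeR.

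Signalling genes upstream of AP-1 differed in both directions. In the MAP kinase list, 10 of 19 genes were higher and 9 lower, with 1 and 3 of them at an unadjusted p below 0.05 by edgeR, against 3.50% and 3.84% of all genes. Map3k1, a kinase that feeds the JNK branch, was lower at a log2 fold change of -0.47, from 33.3 and 42.1 CPM in vehicle to 25.4 and 28.8 in 5D. Map2k6, which activates p38, was higher at 0.48, from 11.2 CPM in both vehicle libraries to 15.4 and 15.9 in 5D. The p38 kinase gene Mapk14 and the kinase it activates, Mapkapk2, were lower at -0.15 and -0.12. Among 6 serum response factor genes and cofactors tested, Elk3 was lower at -0.29. None of these 5 kinase and cofactor genes had an adjusted p below 0.05 by edgeR.

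Other immediate early genes lay on both sides of 0. Of 27 tested, 13 were higher and 14 lower, around a median of -0.015 on the log2 scale. In 7 of them 5D was wholly higher and in 8 wholly lower, against 18.7% and 18.8% of all genes. Klf10, a zinc finger gene induced by TGF-beta, was higher at 0.21, and Csrnp1, a nuclear protein gene, lower at -0.31, each with an unadjusted p below 0.05 by edgeR. Heat shock genes, which can mark stress during handling, had a median of -0.0080 over 11. The one with an unadjusted p below 0.05 by edgeR was Hspa1a, at 59 and 39 counts in vehicle and 20 and 22 in 5D. This gene has a near-identical copy, with which its reads may be split. That copy, Hspa1b, named here after its values were seen, was at 130 and 153 counts in vehicle and 101 and 164 in 5D. Its log2 fold change was -0.48, and its groups overlapped in normalized CPM.

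Of 18 known AP-1 and NFAT target genes of lymphocytes, 14 were tested, 10 of them lower, and their median on the log2 scale was -0.079. At an unadjusted p below 0.05 by edgeR, 5 were lower and 1 higher, where 3.84% and 3.50% of all genes were. Il9, a type 2 cytokine gene, was the only one with an adjusted p below 0.05 (0.0314 by edgeR), at 271 and 157 counts in vehicle and 89 and 86 in 5D. Lif, an IL-6 family cytokine gene, was at 18.6 and 18.8 CPM in vehicle and 10.6 and 9.93 in 5D, and Il2ra, the high-affinity IL-2 receptor chain, at 2221 and 2068 and at 1771 and 1874, with adjusted p of 0.0642 and 0.0878 by edgeR. Csf2, which encodes GM-CSF, was higher at 0.16, with 347 CPM in vehicle and 387 in 5D on average.

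**Figure D5:**
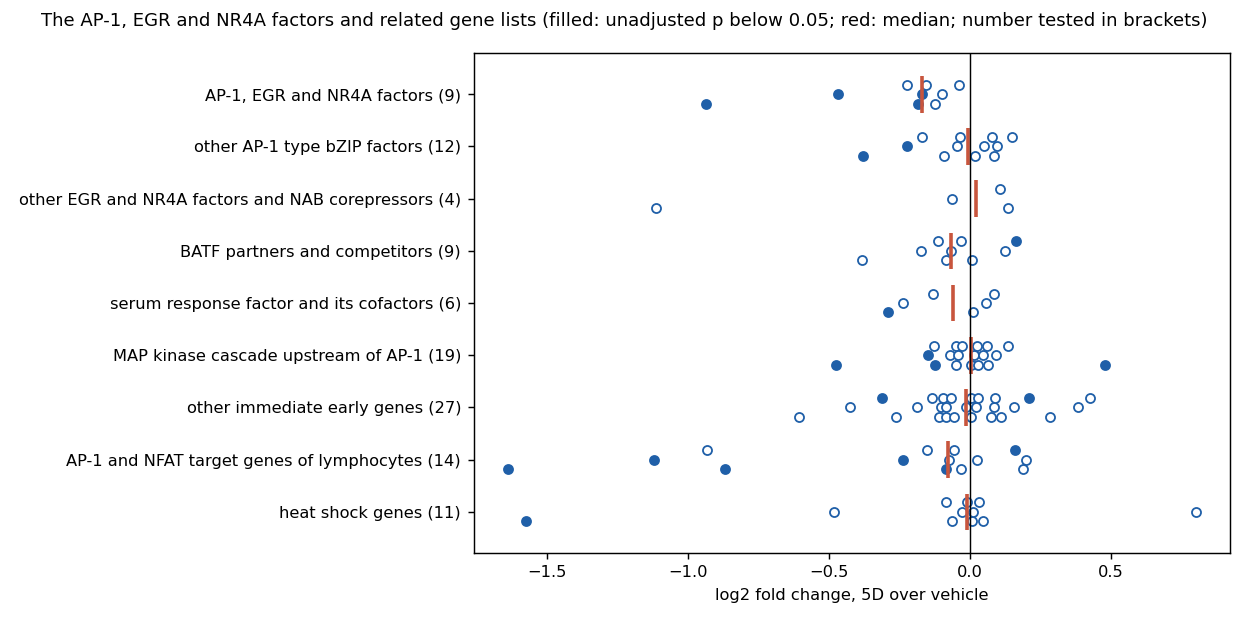
Log2 fold change of each tested gene in the 10 factors and in the related gene lists, 1 row per list, with filled points for an unadjusted p below 0.05 and a red mark at the list's median. The 9 factors all lie below 0, while each other list has genes on both sides. Of their relatives placed in other lists, Fosl1 (0.019) and Egr3 (0.14) lie above 0 and Nr4a2 (-1.11) below.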

How the data were processed

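The cDNA libraries of 2 vehicle and 2 compound 5D samples were made with a low-input SMARTer kit and sequenced on an Illumina instrument. The authors aligned reads with STAR 2.6.1 to mm10 and deposited estimated counts per gene on GENCODE M21 from Partek, which need not be whole: 50.4% to 53.2% of values were whole per library. Here they were rounded. A gene was tested where its normalized counts averaged 1 or more and summed to 10 or more (17650 were, 4904 were not) with edgeR 4.0.16 (quasi-likelihood, upper-quartile factors, no covariates, Benjamini-Hochberg adjustment over all tested genes). The study's Gene Set Analysis module was not run. CPM are normalized with the same factors. The biological coefficient of variation was 8.51%. An exact permutation test of 2 against 2 libraries gives a p of 0.333 at best. The members and lists were chosen with earlier results of these data known. All 10 members are named, and from each list up to 4 genes with the smallest unadjusted p under 0.05. Alternatives covered normalization, filter, tool (DESeq2 1.42.0, limma 3.58.1), replicate block and leaving out each library. Scripts were tested on simulated data.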

Additional observations from a re-analysis of the deposited data

How the results depend on the processing

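With all 4 libraries, each of the 9 genes stayed lower under the 9 alternatives run, with adjusted p of 0.199 or more (DESeq2 returned one for 4 genes, not for Fos, Fosl2, Jun, Egr2 and Nr4a1). Jund passed an unadjusted p of 0.05 with upper-quartile factors taken after the filter and Egr2 did not with DESeq2. Over all genes, adjusted calls moved from 5 higher and 12 lower to 17 and 43 with DESeq2, 9 and 23 with limma-voom, and 11 and 35 without the filter, and filterByExpr gave 19 lower. A replicate block gave 9 higher and 32 lower and changed no call of the 9 genes, but the replicate numbers were not shown to pair libraries (r = 0.016 across 12331 genes, which are not independent). Leaving out 1 library gave 3 to 73 higher and 12 to 107 lower genes (both highest without vehicle replicate 1), 0 to 1 of the 9 at an adjusted p below 0.05 (Nr4a1), 2 to 3 at an unadjusted one, and turned 3 log2 fold changes, whose ranges were -0.20 to 0.099 for Fos and -0.22 to 0.0014 for Egr1 (highest without 5D replicate 1) and -0.32 to 0.032 for Fosl2 (highest without vehicle replicate 1). The causes were not tested. With 2 libraries per group, intervals of the 5 genes past no threshold span 0, and Fosb and Egr2 rest on few counts.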
